A study of Arabidopsis thaliana with 9 samples.

Results

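Indolic glucosinolates are sulphur-rich defence compounds that Arabidopsis makes from tryptophan, and 10 genes of their synthesis were followed here across 3 genotypes. The members were taken by gene identifier from the 33977 rows of each gene table, by their place in the pathway. The rule uses no measured value, though earlier results of these data were known when it was made. They are the regulators MYB34, MYB51 and MYB122, the first enzymes CYP79B2 and CYP79B3, the core enzymes CYP83B1, GSTF9 and SOT16, and the ring-modifying enzymes CYP81F2 and IGMT1. All 10 had reads in every comparison, so none was lost to a filter on low values.

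RNA was sequenced from whole seedlings of Arabidopsis thaliana, ecotype Col, aged 4 days, raised on MS medium under continuous white light. The genotypes were a myb30 mutant, plants overexpressing MYB30 (MYB30-OE) and the wild type (Col), with 3 libraries each. The sources used here give neither the nature of the mutation, nor the promoter of the overexpression construct, nor the number of independent lines. For each pair of genotypes the authors deposited a table that gives each gene's log2 fold change, p-value and average level as log2 CPM (counts scaled to 1e6 reads). No value of a single library could be given, so the level of a genotype is the mean that its table implies, and the spread enters only through the deposited p-value. A gene was called where that p-value, after Benjamini-Hochberg adjustment over all genes with a read, was under 0.05. The approximate standard errors and 95% intervals below are those a normal test with the deposited p-value would have had.

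In this pathway a cytochrome P450 of the CYP79B type turns tryptophan into an aldoxime, which CYP83B1 oxidises further. A sulphur donor is then added, a carbon-sulphur lyase and a glucosyltransferase follow, and a sulphotransferase completes the parent indolic glucosinolate. CYP81F enzymes hydroxylate its indole ring and IGMT enzymes methylate the hydroxyl group, which gives the form known from the defence of Arabidopsis leaves against microbes. The aldoxime is also a branch point towards the antimicrobial compound camalexin and towards auxin.

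The targeted gene, MYB30, a MYB transcription factor gene on chromosome 3, had an implied 4.55 CPM in myb30, against 32.2 CPM in Col, in the authors' deposited table of that pair. In the other it had 617 CPM in MYB30-OE, against 31.7 CPM in Col. This gene also served to find the direction of the fold changes, so it is no test of the labels. The tables implied mean library sizes of 33.1 to 35.2 in units of 1e6 gene reads. Of the marker lists, the 9 root markers summed to 195 CPM in myb30, 165 CPM in MYB30-OE and 150.1 CPM in Col, with 6 called higher and 0 lower in myb30 against Col and 3 higher and 0 lower in MYB30-OE against Col. The called root markers were the root hair genes EXPA7, EXPA18, COBL9, RHD6 and LRX1 and the stem cell niche gene WOX5 in myb30, and EXPA7, COBL9 and LRX1 in MYB30-OE. SCR, SHR and CASP1, of the inner root tissues, were not called, with log2 fold changes of -0.05, -0.35 and -0.09 in myb30 and -0.03, -0.15 and -0.20 in MYB30-OE. The 5 shoot markers summed to 12813, 25044 and 20926 CPM in the same order. Of these, 4 were lower and 0 higher in myb30, and 2 higher and 1 lower in MYB30-OE. RBCS1A made up most of each sum, at 10071 CPM in myb30 against 16500 CPM in Col, and 18353 CPM in MYB30-OE against 16167 CPM. In MYB30-OE, CAB3 (log2 fold change 0.49) and LHB1B1 (0.57) were higher and MYB60 lower (-0.47). RBCS1A (0.18) and FAMA (-0.26) were not called there. In myb30 all but MYB60 (-0.21) were called lower. The phloem companion cell marker SUC2 was at 47.6, 72.4 and 62.4 CPM, called lower in myb30 and not called in MYB30-OE. The 9 embryo storage markers were all called higher in both lines and summed to 632, 134 and 15.3 CPM. No marker of these lists was at 0 in any genotype. Their part in the results on the pathway was not tested, and in whole seedlings fewer cells of a type and less RNA per cell cannot be told apart.

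Of the 10 members, 6 were called in at least 1 comparison, in both directions. The share of all genes called in at least 1 comparison was not computed, so this count has no background here. Against Col, CYP81F2 was higher and CYP79B3 lower in myb30, while MYB51 and IGMT1 were higher and GSTF9 lower in MYB30-OE. When myb30 was set directly against MYB30-OE, GSTF9 and CYP83B1 were higher in myb30, and IGMT1, MYB51 and CYP79B3 were lower. MYB34, MYB122, CYP79B2 and SOT16 were called in none of the 3 comparisons. No member was called in both comparisons with Col, and the share of all genes called in both was not computed. This depends on the set of tested genes. Among genes of at least 1 CPM, CYP81F2 (higher in both lines) and IGMT1 (lower in myb30, higher in MYB30-OE) passed in both.

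The counts per comparison are to be read against the share of all genes called. In myb30 against Col, 2 of 10 members were called, where 21.5% of all 25713 genes with a read were called, 10.8% higher and 10.7% lower. In MYB30-OE against Col, 3 of 10 were called, where the share over 25593 genes was 11.5%, 5.99% higher and 5.49% lower. In myb30 against MYB30-OE, 5 of 10 were called, where the share over 25647 genes was 31.6%, 16.2% higher and 15.4% lower. The count for myb30 against Col is therefore at the background of that table and says nothing particular to these genes. All members averaged at least 1 CPM, and genes of that level were called more often. Of 18641 such genes, 2455 were higher and 2507 lower in myb30 against Col. In MYB30-OE against Col 1344 were higher and 1282 lower of 18593, and in myb30 against MYB30-OE 3744 and 3553 of 18684. Whether the members exceed these shares was not tested. The median log2 fold change of the members was 0.10 for myb30 over Col, -0.00 for MYB30-OE over Col and 0.10 for myb30 over MYB30-OE, against 0.01, 0.00 and 0.03 for all genes with a read. Comparisons that share Col libraries are not independent of each other, and likewise those that share another genotype.

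**Figure D1:**
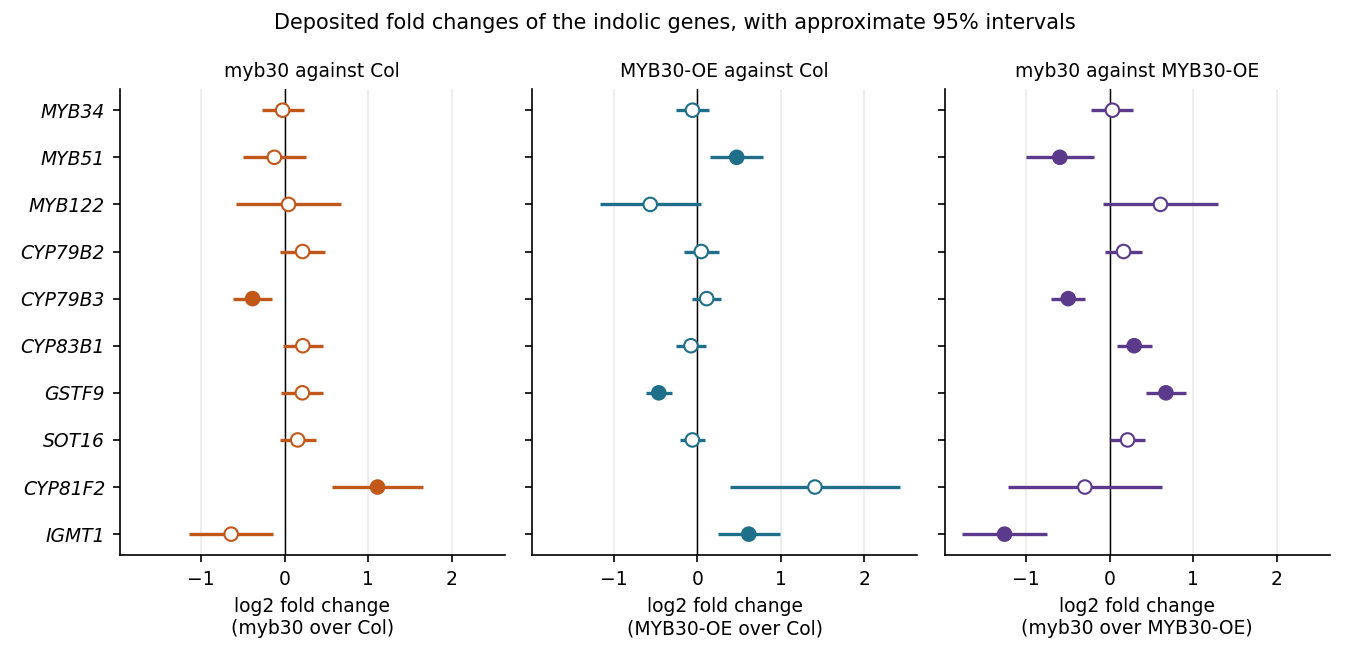
Deposited log2 fold change of each of the 10 genes (horizontal axis) in the 3 comparisons, with bars for approximate 95% intervals and filled points for an adjusted p under 0.05. CYP81F2 stands farthest from 0 against Col in both lines, with a wider interval in MYB30-OE where it is not filled, and IGMT1 lies at -1.26 in myb30 against MYB30-OE.

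The 10 genes spanned a wide range of levels. Scaled to exon length, GSTF9 was the most abundant at 647 CPM per kb in myb30, 402 in MYB30-OE and 554 in Col. CYP83B1 (71.3, 57.6 and 60.8 CPM per kb), SOT16 (42.2, 36.01 and 37.6), CYP79B2 (38.01, 33.6 and 32.5), CYP79B3 (23.4, 32.7 and 30.3) and MYB34 (21.5, 20.8 and 21.7) followed in this order in every genotype. The low group held IGMT1 (3.64, 8.64 and 5.65 CPM per kb), MYB51 (4.403, 6.59 and 4.76), CYP81F2 (1.998, 2.41 and 0.913) and MYB122 (1.28, 0.832 and 1.23). The upper 6 ranks were the same in all genotypes, whereas MYB51 and IGMT1 changed places in myb30 and CYP81F2 passed MYB122 in both altered lines. These orders carry no error between genes, because the tables hold no values of single libraries. CYP79B2 and CYP79B3 in MYB30-OE and in Col lay within 1.07-fold of each other on this scale.

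**Figure D2:**
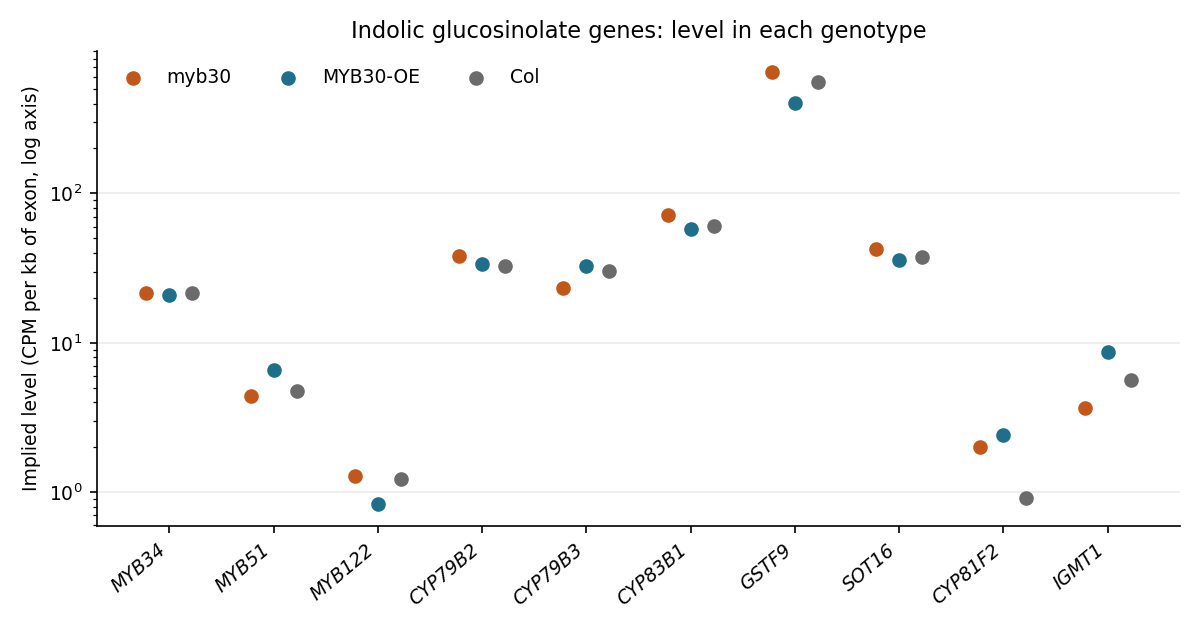
Implied level of each gene in CPM per kb of exon (log axis), with points for myb30, MYB30-OE and Col from left to right. GSTF9 lies between 402 and 647, and MYB122 and CYP81F2 lie at 2.41 or lower.

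The 3 regulators are R2R3 MYB factors that activate the genes of indolic glucosinolate synthesis. MYB51 (AT1G18570, chromosome 1 from 6389411 to 6391267, plus strand, 3 exons, in the TAIR10 build used for all gene positions here) was higher in MYB30-OE, at 10.8 CPM against 7.79 CPM in Col in the authors' deposited table. This 1.39-fold rise had a log2 fold change of 0.47 (approximate 95% interval 0.16 to 0.79, adjusted p = 0.0344). In myb30 it was at 7.31 CPM against 7.96 CPM in Col (log2 fold change -0.12, interval -0.50 to 0.25), which did not pass. Set directly against each other, myb30 had 7.26 CPM and MYB30-OE 10.99 CPM, a log2 fold change of -0.60 (adjusted p = 0.0169). Neither MYB34 nor MYB122 had a called difference in these 3 comparisons.

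MYB34 (AT5G60890, chromosome 5 from 24494691 to 24496351, plus strand), the most abundant of the regulators per kb of exon, was called in no comparison. The authors' deposited tables imply 29.2 CPM in myb30 against 29.7 CPM in Col, and 28.02 CPM in MYB30-OE against 29.1 CPM in Col. Its log2 fold changes were -0.02 (interval -0.28 to 0.23) and -0.06 (interval -0.26 to 0.14). A change of MYB34 by 1.5-fold or more lies outside both intervals. MYB122 (AT1G74080, chromosome 1 from 27855699 to 27857534, plus strand) had the lowest level per kb of exon of the regulators, at about 62.0 reads per library in myb30 and 60.1 in Col. It had 1.76 CPM in myb30 against 1.71 CPM in Col (log2 fold change 0.05, interval -0.58 to 0.68). In MYB30-OE it had 1.13 CPM against 1.67 CPM in Col (log2 fold change -0.56, interval -1.17 to 0.04, adjusted p = 0.280). A 1.5-fold change higher in myb30, or lower in MYB30-OE, lies inside these intervals. In myb30 against MYB30-OE it had 1.77 CPM and 1.16 CPM (log2 fold change 0.61, interval -0.08 to 1.29), and did not pass.

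CYP79B2 and CYP79B3 are the cytochrome P450 enzymes that commit tryptophan to the aldoxime, and they are related copies with 81.5% identical bases over 1626 aligned coding bases. CYP79B3 (AT2G22330, chromosome 2 from 9488554 to 9491187, plus strand, 2 exons) fell to 44.2 CPM in myb30, against 57.6 CPM in Col in the authors' deposited table. Its log2 fold change was -0.38 (interval -0.61 to -0.15, adjusted p = 0.00833). CYP79B2 (AT4G39950, chromosome 4 from 18525246 to 18527579, plus strand, 2 exons) was at 75.6 CPM in myb30 against 65.2 CPM in Col (log2 fold change 0.21, interval -0.05 to 0.48), and did not pass. The intervals of the pair do not overlap in myb30, but the difference between the 2 genes was not tested.

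In MYB30-OE neither copy was called. CYP79B3 had 61.1 CPM against 56.5 CPM in Col (log2 fold change 0.11, interval -0.06 to 0.28), and CYP79B2 had 66.1 CPM against 63.9 CPM in Col (0.05, interval -0.16 to 0.26). Between the lines, CYP79B3 was at 43.96 CPM in myb30, against 62.1 CPM in MYB30-OE, in the authors' deposited table (log2 fold change -0.50, adjusted p = 2.26e-05). Per kb of exon, CYP79B2 exceeded CYP79B3 1.62-fold in myb30, 1.03-fold in MYB30-OE and 1.07-fold in Col. No window of 50 bases of either transcript occurs in another transcript of the deposited annotation. The read length and the counting are not known.

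Upstream sequence of the pair is shown because it holds the longest stretch shared by the 2 promoters. Every promoter here is the 250 bases before the outermost start that either RefSeq (TAIR10.1) or the deposited TAIR10 annotation gives. That start lies 204 bases upstream of the TAIR10 start of CYP79B2 given above, and 141 bases upstream of that of CYP79B3. Capitals mark that stretch of 40 bases, which allows 1 mismatch and no gap. The sequences are from the TAIR10.1 assembly, plus strand, at chr4:18524792-18525041 and chr2:9488163-9488412.
CYP79B2: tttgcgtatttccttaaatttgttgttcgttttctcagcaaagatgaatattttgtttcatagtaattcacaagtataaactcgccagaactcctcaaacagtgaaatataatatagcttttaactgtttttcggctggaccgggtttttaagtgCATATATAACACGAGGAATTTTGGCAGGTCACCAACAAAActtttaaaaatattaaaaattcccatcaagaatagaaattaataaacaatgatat
CYP79B3: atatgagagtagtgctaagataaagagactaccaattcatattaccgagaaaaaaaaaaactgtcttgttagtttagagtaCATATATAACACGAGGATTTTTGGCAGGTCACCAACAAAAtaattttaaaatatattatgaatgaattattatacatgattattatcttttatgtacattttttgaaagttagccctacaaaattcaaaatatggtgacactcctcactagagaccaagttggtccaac
The stretch begins 95 bases before the outermost start of CYP79B2 and 169 bases before that of CYP79B3. Counted from their TAIR10 starts, the distances are 299 and 310 bases. Counted from 1 at its 5′ end, CYP79B2 and CYP79B3 differ by A18T. Its last 22 bases, TTTTGGCAGGTCACCAACAAAA, are identical, and of 26709 promoters of this length of protein-coding genes, searched on both strands, 2 hold them. Both the copy called lower in myb30 and the copy not called hold this stretch, which is a description of letters alone.

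Of the core enzymes none was called in myb30 against Col. CYP83B1 (AT4G31500, chromosome 4 from 15273471 to 15275310, minus strand, 2 exons) oxidises the indolic aldoxime. The authors' deposited table of myb30 and Col implies 125 CPM in myb30 against 107 CPM in Col (log2 fold change 0.22, interval -0.03 to 0.46). In MYB30-OE it had 99.7 CPM against 105 CPM in Col (-0.07, interval -0.25 to 0.10). It was called in the direct comparison, with 124 CPM in myb30, against 101 CPM in MYB30-OE (log2 fold change 0.29, adjusted p = 0.0239). That difference is 1.22-fold and rests on no called difference from Col in either line.

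GSTF9 (AT2G30860, chromosome 2 from 13138997 to 13140245, plus strand, 3 exons) encodes a glutathione transferase assigned to the sulphur-donating step. It fell to 387 CPM in MYB30-OE, against 533 CPM in Col in the authors' deposited table. Its log2 fold change of -0.46 had the lowest adjusted p of any member against Col (interval -0.61 to -0.31, adjusted p = 2.2e-07). In myb30 it had 630 CPM against 543 CPM in Col (0.21, interval -0.04 to 0.46), which did not pass. Between the lines it had 627 CPM in myb30, against 393 CPM in MYB30-OE, a 1.59-fold difference (log2 fold change 0.67, adjusted p = 5.69e-07). Its neighbour GSTF10, a related glutathione transferase gene 1111 bases away on the same strand, was also lower in MYB30-OE. GSTF10 had 267 CPM there against 319 CPM in Col (log2 fold change -0.26, adjusted p = 0.00952). The pair has 77.6% identical coding bases and shares no window of 50 bases.

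SOT16 (AT1G74100, chromosome 1 from 27864345 to 27865694, minus strand, 1 exon) adds the sulphate group that completes the indolic compounds. The authors' deposited tables imply 57.1 CPM in myb30 against 51.2 CPM in Col, and 48.2 CPM in MYB30-OE against 50.2 CPM in Col. Its log2 fold changes of 0.16 (interval -0.06 to 0.37) and -0.06 (interval -0.21 to 0.09) did not pass. The related sulphotransferase gene SOT18, which serves the aliphatic glucosinolates made from methionine, ends 151 bases from the end of SOT16 on the opposite strand. SOT18 fell to 8.63 CPM in MYB30-OE, against 18.0 CPM in Col (log2 fold change -1.06, adjusted p = 5.48e-13). These neighbours have 79.7% identical coding bases and share no window of 50 bases. No source used here states whether strand was kept, so reads that run past the end of either gene cannot be placed.

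CYP81F2 (AT5G57220, chromosome 5 from 23187840 to 23189857, plus strand, 3 exons) encodes the P450 that hydroxylates the indole ring in immune responses. It was the member with the largest fold changes against Col. In the authors' deposited table it had 3.47 CPM in myb30 against 1.604 CPM in Col, a 2.16-fold rise (log2 fold change 1.11, interval 0.57 to 1.65, adjusted p = 6.77e-04). In MYB30-OE it had 4.10 CPM against 1.54 CPM in Col, a 2.66-fold difference that did not pass (log2 fold change 1.41, interval 0.39 to 2.42, adjusted p = 0.0548). Among genes of at least 1 CPM the same p-value gave an adjusted p of 0.0446. The lines did not differ beyond their spread (log2 fold change -0.30 in myb30 against MYB30-OE, interval -1.22 to 0.63).

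The larger fold change thus came with the weaker p-value. The approximate standard error of CYP81F2 was 0.52 there, where the median of 2077 genes within 1.5 times its level was 0.24, and 99.2% of those genes had a lower one. In myb30 against Col it was 0.28, where the median of 1975 such genes was 0.26. IGMT1 was at 0.26 in myb30 against Col, where the median was 0.19 and 94.6% of genes of its level were lower. In the same comparison SOT16 had a tight spread, with 3.87% of the genes of its level below it. These errors follow from the p-values alone and do not show which library was high or low.

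The 250 bases before the start of CYP81F2, where both annotations give the same start, are shown because they hold the W-box, the sequence known to be bound by WRKY factors, on the reverse strand. Its matches, which overlap no other motif searched, are in capitals, at chr5:23187590-23187839 on the plus strand of TAIR10.1.
CYP81F2: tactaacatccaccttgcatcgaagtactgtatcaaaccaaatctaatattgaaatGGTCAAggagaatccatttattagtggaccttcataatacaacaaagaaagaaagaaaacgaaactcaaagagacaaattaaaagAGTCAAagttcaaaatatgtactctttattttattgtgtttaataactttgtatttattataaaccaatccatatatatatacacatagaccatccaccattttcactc
Here the W-box was searched as TTGACC or TTGACT on both strands, and 28.5% of 26709 promoters of this length hold at least 1. Among the members CYP81F2 and IGMT1 hold it, 2 of 10. CACGTG, the G-box, is in none of the 10 and in 6.57% of all promoters. The MYB-type sequence AACAAAC is in that of IGMT1 and in 11.2% of all, and ACCTACC or ACCAACC in that of SOT16 and in 3.79% of all. The W-box of IGMT1 begins 222 bases before its TAIR10 start and does not overlap AACAAAC, 195 bases before it.

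IGMT1 (AT1G21100, chromosome 1 from 7386839 to 7388428, minus strand, 3 exons) encodes a methyltransferase that acts after CYP81F enzymes. In the authors' deposited table it had 11.9 CPM in MYB30-OE against 7.74 CPM in Col, a 1.53-fold rise (log2 fold change 0.62, interval 0.24 to 0.99, adjusted p = 0.0147). In myb30 it had 5.06 CPM against 7.89 CPM in Col (log2 fold change -0.64, interval -1.15 to -0.13, adjusted p = 0.0581), which did not pass. Among genes of at least 1 CPM that adjusted p was 0.0472. Set directly against each other, myb30 had 5.02 CPM and MYB30-OE 12.03 CPM, a 2.39-fold difference (log2 fold change -1.26, adjusted p = 1.17e-05). This was the largest difference of any member between the lines.

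IGMT1 lies in a run of 4 related genes on the minus strand of chromosome 1, in the order IGMT1, IGMT3, IGMT2 and IGMT4, with no other annotated gene in the span. The called changes in the run were of both signs. IGMT4 fell to 76.6 CPM in myb30, against 123 CPM in Col in the authors' deposited table (log2 fold change -0.68, adjusted p = 8.06e-04), and was not called in MYB30-OE (0.18). IGMT3 fell to 20.5 CPM in MYB30-OE, against 26.7 CPM in Col (log2 fold change -0.38, adjusted p = 0.0299), and was not called in myb30 (0.19). IGMT2 was called in neither. Its log2 fold change was 0.57 in myb30 (interval 0.12 to 1.02, adjusted p = 0.0592) and -0.15 in MYB30-OE. In myb30 its adjusted p was thus near that of IGMT1 (0.0581), with the opposite sign. In myb30 against MYB30-OE, IGMT4 was lower like IGMT1 (log2 fold change -0.87, adjusted p = 2.74e-06) and IGMT3 higher (0.57, adjusted p = 0.00591). IGMT5, which lies elsewhere on chromosome 1, was higher in myb30, at 119 CPM against 83.2 CPM in Col (log2 fold change 0.51, adjusted p = 0.00252).

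IGMT1 has 92.5% to 93.05% identical coding bases with the other genes of the run. Of its 50-base windows 13.6% occur in another transcript, against 41.8% for IGMT3, 34.5% for IGMT2 and 12.9% for IGMT4. The sources used here do not tell how such reads were counted, so the division of reads within the run is uncertain, and its part in these values was not tested.

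**Figure D3:**
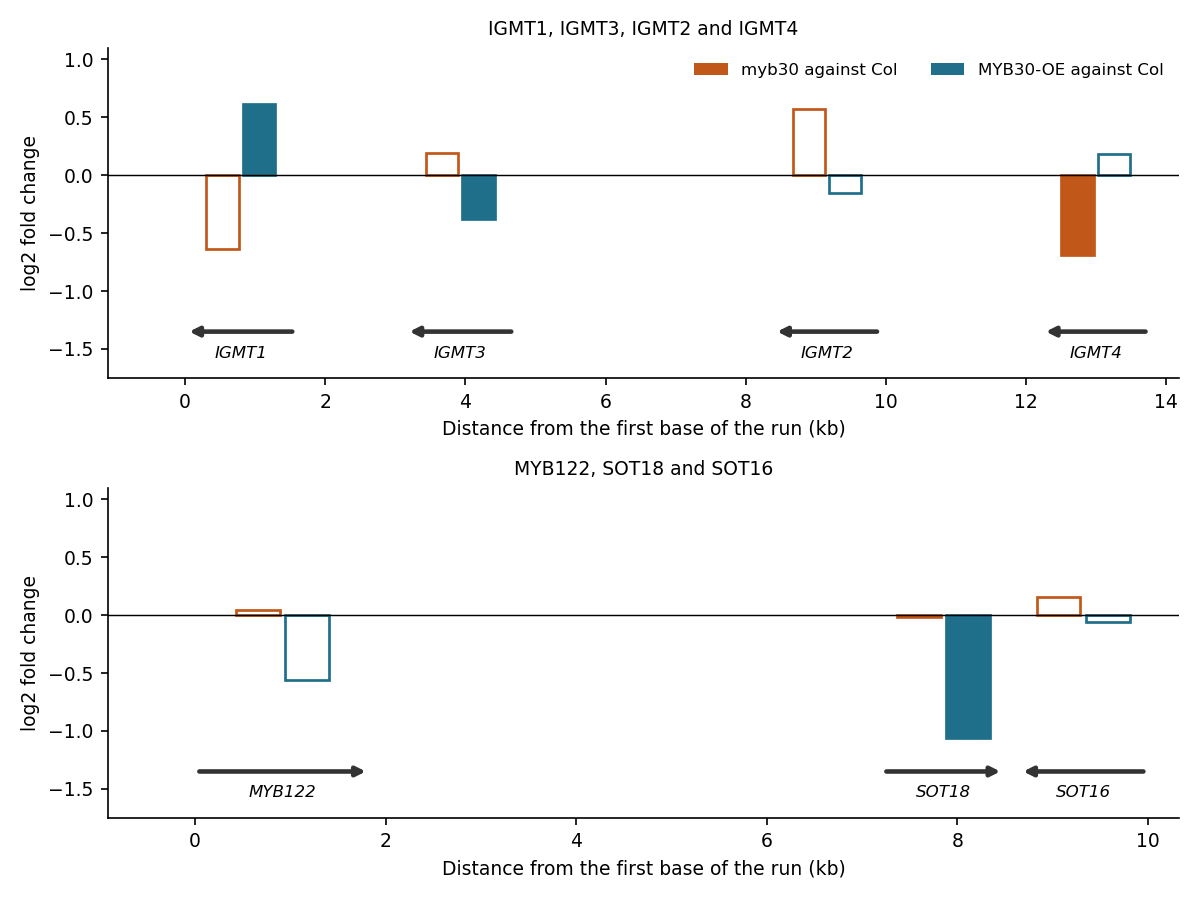
Deposited log2 fold changes against Col (bars, filled where the adjusted p is under 0.05; myb30 left and MYB30-OE right at each gene) along the run of IGMT genes and along MYB122, SOT18 and SOT16, with arrows for gene position and strand in kb from the first base. IGMT1 and IGMT3 point in opposite directions in each line, and SOT18 is at -1.06 in MYB30-OE beside SOT16 at -0.06.

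The 4 genes of the run share a W-box with flanking letters upstream, which is shown to set the common sequence beside the unequal responses. Capitals mark TTGAANNTTGACTT, the letters common to all of them around TTGACT, written with N where they differ. The windows of 54 bases lie on the minus strand of TAIR10.1 at chr1:7388624-7388677, chr1:7391739-7391792, chr1:7396967-7397020 and chr1:7400782-7400835.
IGMT1: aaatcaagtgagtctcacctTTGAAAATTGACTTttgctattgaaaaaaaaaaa
IGMT3: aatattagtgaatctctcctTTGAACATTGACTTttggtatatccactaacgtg
IGMT2: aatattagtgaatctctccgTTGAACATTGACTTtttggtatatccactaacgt
IGMT4: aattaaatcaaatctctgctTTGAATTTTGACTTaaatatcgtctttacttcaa
The match begins 229, 219, 227 and 210 bases before the TAIR10 starts of IGMT1, IGMT3, IGMT2 and IGMT4. Counted from their outermost starts, the distances are 145, 169, 177 and 79 bases. They are thus similar by the TAIR10 starts only. Of 26709 promoters of 250 bases, 12 hold it on either strand (0.0449%), these 4 included, from which the letters were derived. Genes called higher, lower and not called in MYB30-OE all hold it.

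**Figure D4:**
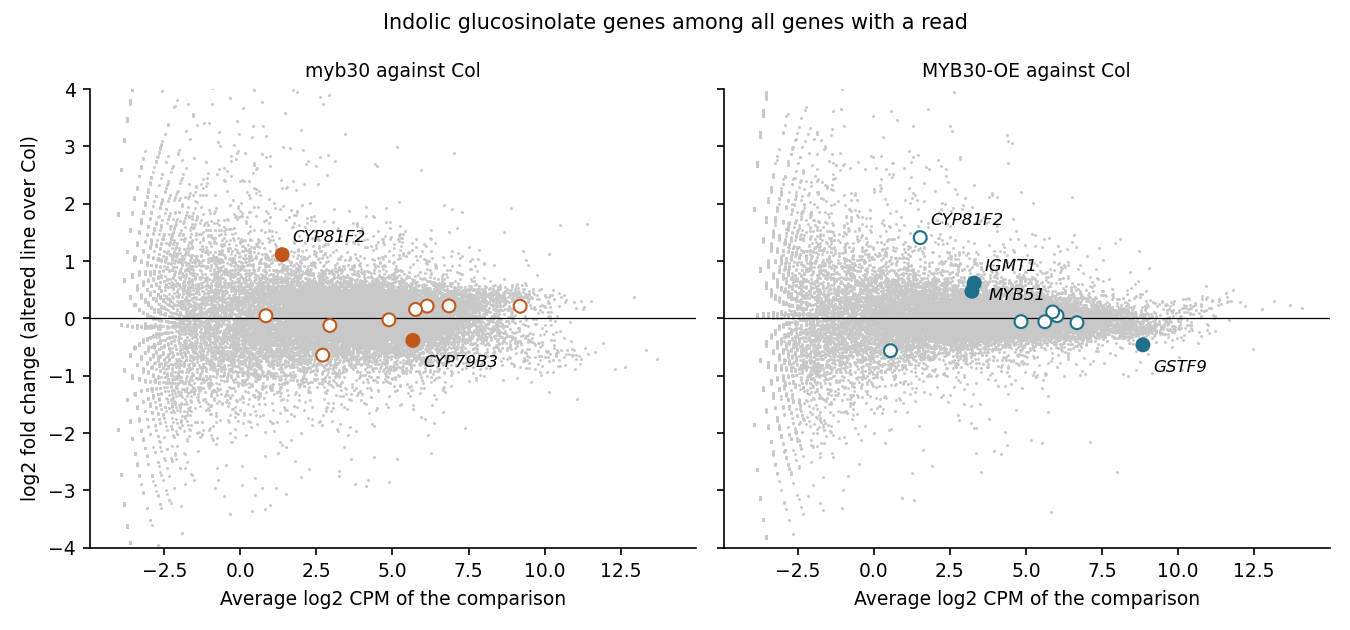
Average log2 CPM (horizontal axis) against the log2 fold change over Col (vertical axis, shown from -4 to 4) for all genes with a read in grey and the 10 members in colour, filled where the adjusted p is under 0.05. CYP81F2 is the highest member in both panels, at 1.11 in myb30 and 1.41 in MYB30-OE, and GSTF9 is the member farthest to the right.

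Of 17 other listed genes of the indolic pathway, 15 had reads. The transcription factor gene MYC2 and CYP81F1 had none in any table. How reads were counted is not known, so this does not show that either gene is silent. In myb30 against Col, 1 was higher and 3 were lower, which are IGMT5, IGMT4, CYP81F4 (log2 fold change -0.65) and the regulator gene OBP2 (-0.66). OBP2, a DOF factor gene, had 8.23 CPM in myb30 against 13.0 CPM in Col in the authors' deposited table (adjusted p = 7.09e-04). In MYB30-OE against Col, 2 were higher and 3 lower. The ring hydroxylase gene CYP81F3 had 19.1 CPM in MYB30-OE against 11.5 CPM in Col (log2 fold change 0.73, adjusted p = 9.68e-07) and CYP81F4 8.72 CPM against 5.65 CPM (0.63, adjusted p = 0.0169). Another annotated gene, AT4G37409, covers 85.1% of the 50-base windows of CYP81F4, so its counts are uncertain. The genes that were lower were SUR1, the carbon-sulphur lyase gene, IGMT3 and GSTF10. SUR1 had 40.6 CPM in MYB30-OE against 58.6 CPM in Col (log2 fold change -0.53, adjusted p = 5.56e-09). The list medians were 0.03 in myb30 and 0.00 in MYB30-OE. In myb30 against MYB30-OE, 4 of the 15 were higher and 5 lower. Counts in this list and the lists below are to be read against the shares of all genes with a read. These were 21.5% called in myb30 against Col, 11.5% in MYB30-OE against Col and 31.6% in myb30 against MYB30-OE. Whether any list exceeds them was not tested.

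Tryptophan supply and sulphate activation feed the pathway. Of 10 tryptophan synthesis genes, 3 were higher and 1 lower in myb30 against Col. TSB2 (log2 fold change 0.49), TSA1 (0.38) and IGPS (0.29), of the late steps, were higher in the authors' deposited table, and ASA1, the first committed step, was lower (-0.37). In MYB30-OE, 1 was lower, PAI1 (-0.28), and 0 were higher. Of 10 genes of sulphate activation and glutathione synthesis, 5 were lower and 0 higher in myb30. The 3 APS reductase genes APR1, APR2 and APR3 had 40.3, 34.2 and 63.1 CPM in myb30, against 82.4, 73.95 and 145 CPM in Col (log2 fold changes -1.03, -1.11 and -1.20). They were 2.05-fold, 2.16-fold and 2.30-fold lower, and the adjusted p of APR3 was 8.57e-11. In MYB30-OE none of these reductases was called, while SAL1 (-0.32) and APK1 (-0.29) were lower and GSH2 was higher (0.22). In myb30 against MYB30-OE, 5 tryptophan genes were higher and 1 lower, and of the genes of sulphate activation and glutathione 1 was higher (SAL1) and 5 lower (APS3, APR1, APR2, APR3 and GSH2).

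A list of 10 genes covers camalexin and related defence compounds, with the regulator WRKY33, and indolic routes to auxin. Of these, 4 were higher and 2 lower in MYB30-OE against Col. CYP71A12, a P450 gene of camalexin-type branches, had 10.8 CPM in MYB30-OE against 1.11 CPM in Col in the authors' deposited table (log2 fold change 3.27, interval 1.26 to 5.28, adjusted p = 0.0168). WRKY33, a factor gene that activates camalexin synthesis, had 55.8 CPM against 23.3 CPM (log2 fold change 1.26, adjusted p = 8.95e-11). The oxidase gene FOX1 had 2.62 CPM against 0.212 CPM (3.61, adjusted p = 0.0106), and CYP82C2 had 0.607 CPM against 0.0189 CPM, which is 0.626 reads per Col library. The lower ones were NIT1 (-0.41), a nitrilase gene, and TAA1 (-0.48), an aminotransferase gene that makes an auxin precursor from tryptophan without the aldoxime. In myb30, TAA1 was higher (0.48) and WRKY33 lower (-0.62). Of 6 genes of breakdown and transport, 3 were higher and 1 lower in MYB30-OE. These were the glutathione transferase gene GSTU13 (0.34), PCS1 (0.33), the exporter gene PEN3 (0.30) and the importer gene GTR2 (-0.38). In myb30, GSTU13 and PEN3 were lower (-0.40 each), and no gene of this list was higher. In myb30 against MYB30-OE, 2 genes of the camalexin and auxin list were higher and 3 lower, and 1 gene of breakdown and transport was higher and 3 lower.

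The aliphatic branch uses methionine and has its own P450 enzymes. In MYB30-OE against Col, 13 of 15 aliphatic genes with reads were lower and 0 higher, with a median log2 fold change of -1.49. The members had 1 lower and 2 higher of 10, and the difference between the lists was not tested. CYP83A1, the aliphatic counterpart of CYP83B1, had 5.90 CPM in MYB30-OE against 30.4 CPM in Col (log2 fold change -2.36) in the authors' deposited table, where CYP83B1 was at -0.07. In myb30, 2 of 16 aliphatic genes were higher and 2 lower, and in myb30 against MYB30-OE 14 of 16 were higher and 0 lower.

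**Figure D5:**
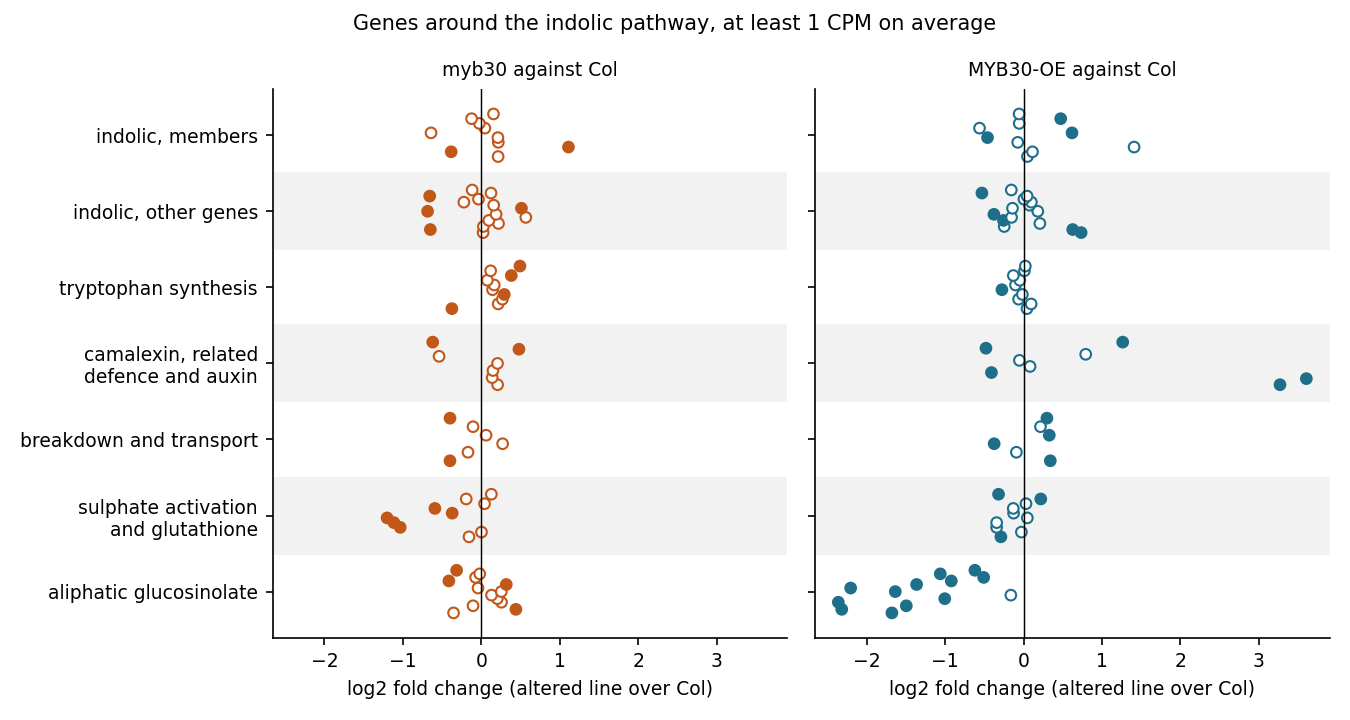
Log2 fold change over Col (horizontal axis) of the members and of 6 lists of related genes, for genes of at least 1 CPM on average in that comparison, filled where the adjusted p is under 0.05. In MYB30-OE the aliphatic genes lie between -2.36 and -0.16, and the indolic members between -0.56 and 1.41.

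The genes most like MYB51 and CYP81F2 in their 2 fold changes against Col were sought among 18395 genes of at least 1 CPM. Likeness was the distance between the pairs of log2 fold changes, over 3 genotypes. For MYB51 the nearest were PIN6 (distance 0.0104), CER3 (0.0105) and GolS1 (0.0145) in the authors' deposited tables, of which CER3 was called in MYB30-OE and none in myb30. For CYP81F2 they were AT3G02480 (distance 0.13), RAB18 (0.22) and RD20 (0.25), which were called higher in both lines. Likeness here rests on 2 values per gene that share the Col libraries.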

How the data were processed

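RNA sequencing of 9 libraries was summarised by the authors in 3 gene tables, 1 per pair of genotypes. Per the file headers, the authors deposited for each gene a log2 fold change, its p-value before adjustment, and the average level in log2 CPM, under the column names of edgeR's exact test. TopHat, Cufflinks, Cuffdiff and TAIR10 are named in the submitters' processing notes. No source used here tells how reads were counted. The deposited TAIR10 annotation gave exon lengths and positions.

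From these tables, p-values were adjusted over all genes with a read (Benjamini-Hochberg, threshold 0.05), with Python 3.11.15, numpy 2.4.6, pandas 2.3.3 and scipy 1.17.1. Rows without reads, 24.3% to 24.7%, lie at the floor of the average log2 CPM. Implied CPM per genotype follows from the average and the fold change, assuming 2 and 0.125 added reads per library and equal library sizes, and is approximate. The median ratio between the Col levels of its 2 tables was 1.02. Direct and summed log2 fold changes of a member differed by at most 0.0025. Adjustment, levels and errors were tested on data simulated under these same assumptions and a normal test. That checks the computation, not whether the assumptions hold for the deposited values. Nothing in the labels says that libraries came from separate cultures, so p-values measure the spread between these samples, which may be technical. How many libraries show a direction is not known. The labels give no batch.

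The members and the 10 other lists (94 genes) were chosen with earlier results of these data known. All 104 identifiers are in the TAIR10.1 gene table. Named are all members, MYB30, list genes next to a member, and up to 4 called genes per list and comparison, ranked by fold change among genes of at least 1 CPM. CYP82C2 is below that level and was named after its values were seen, as were uncalled list genes. Sequences are from RefSeq TAIR10.1, where an ATG opens 99.98% of the 35176 coding transcripts placed by the deposited annotation. Alternatives were a threshold of 0.01, Bonferroni adjustment, a minimum of 1 CPM, no filter, a 1.5-fold minimum, median centring, a pseudocount of 1, and fold changes from the other tables.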

Additional observations from a re-analysis of the deposited data

How the results depend on the processing

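All 90 alternative log2 fold changes of single members (a pseudocount of 1, median centring and the sum or difference of the other tables) kept their direction. This is little evidence of robustness. A pseudocount on levels implied by the same fold change cannot reverse it, and the other tables hold the same libraries. The medians used for centring were 0.02 in myb30, 0.00 in MYB30-OE and 0.02 between the lines. Of 36 alternative counts of called members, 24 stayed within 1.5 times the reported count. With Bonferroni adjustment 0 members were higher and 0 lower in myb30 against Col and 0 were higher in MYB30-OE against Col, where GSTF9 stayed lower, and between the lines 1 was higher (GSTF9) and 1 lower (IGMT1). At an adjusted p of 0.01, 0 members were higher in MYB30-OE against Col and 1 was higher in myb30 against MYB30-OE. With a 1.5-fold minimum, 0 were lower in myb30 against Col, 1 was higher (IGMT1) and 0 lower in MYB30-OE against Col, and 1 was higher in myb30 against MYB30-OE. Among genes of at least 1 CPM, 2 were lower in myb30 against Col (CYP79B3 and IGMT1). In each case the alternative is a stricter rule or a smaller set of tested genes. No paired analysis was possible because the tables hold no values of single libraries, and for the same reason no library was left out. At 1 to 2 CPM few reads limit the precision: MYB122 had 37.5 to 62.0 reads per library and approximate standard errors of 0.31 to 0.35. The 0.52 of CYP81F2 in MYB30-OE against Col is above the 0.24 typical of genes of its level.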
